A study of Mus musculus with 8 samples.

Results

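The genes described here are 10 genes of epidermal growth factor receptor (EGFR) signalling and of the feedback on the mitogen-activated protein kinase (MAPK) cascade. They are the receptors Egfr, Erbb2 and Erbb3, the ligands Areg, Ereg and Hbegf, the feedback inhibitors Dusp6, Spry2 and Spry4, and the transcription factor gene Etv4. They were chosen by gene symbol, with earlier results of these data known, and all 10 were found among 24411 genes. All 10 passed the filter on low counts, as did 12517 genes in all, but Egfr passed only through its largazole libraries. The cells were A223, a mouse squamous cell carcinoma line. They were either parental or carried a knockdown of PRDX6 (KD), a peroxiredoxin that reduces peroxides. Cells of either genotype received DMSO (collected at 0 h) or 100 nM largazole for 18 h, a drug that inhibits class I histone deacetylases. This gave 4 groups of 2 replicate libraries. Drug and time changed together and cannot be told apart, KD cells were set against parental cells rather than a control construct, and the labels do not say how the knockdown was made or whether KD cells are 1 clone.

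EGFR family ligands are made as membrane proteins and are shed from the cell surface. They bind EGFR, which pairs with itself or with ERBB2 or ERBB3 and starts the RAS, RAF, MEK and ERK cascade. In squamous epithelium this pathway drives growth and migration. ERK activity raises transcription of its own brakes: DUSP6 removes phosphate from ERK, and the Sprouty proteins SPRY2 and SPRY4 dampen signalling between receptor and RAS. ETV4 is an ETS factor of the PEA3 group whose transcription also follows ERK activity. mRNA levels say nothing directly of protein or of ERK phosphorylation, which were not measured.

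Stretches of 250 bases before the start of transcription are shown for 3 members that moved in different ways under largazole: a ligand gene that rose (Areg), a feedback gene that rose in the same comparison (Dusp6) and a feedback gene that fell (Spry2). The sequences are RefSeq's, on GRCm38.p6, at chr5:91139349-91139598 on the plus strand, chr10:99262981-99263230 on the plus strand and chr14:105896820-105897069 on the minus strand. Capitals mark a cyclic AMP response element (TGACGTCA) and a GC box (GGGCGG).
Areg: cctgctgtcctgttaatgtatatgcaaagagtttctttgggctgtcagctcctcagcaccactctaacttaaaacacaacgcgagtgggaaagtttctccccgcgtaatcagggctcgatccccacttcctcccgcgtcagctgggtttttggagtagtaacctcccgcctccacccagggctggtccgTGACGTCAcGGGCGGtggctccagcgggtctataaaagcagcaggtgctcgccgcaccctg
Dusp6: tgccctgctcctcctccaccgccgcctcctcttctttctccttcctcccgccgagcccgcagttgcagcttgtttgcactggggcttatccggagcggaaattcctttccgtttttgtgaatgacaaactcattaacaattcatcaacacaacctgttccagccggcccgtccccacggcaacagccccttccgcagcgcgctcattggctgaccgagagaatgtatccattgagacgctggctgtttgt
Spry2: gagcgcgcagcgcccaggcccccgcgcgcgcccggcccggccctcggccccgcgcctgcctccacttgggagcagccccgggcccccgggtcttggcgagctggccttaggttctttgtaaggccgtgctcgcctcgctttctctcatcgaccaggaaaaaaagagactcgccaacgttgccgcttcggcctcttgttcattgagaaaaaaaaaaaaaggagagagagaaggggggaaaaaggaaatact
The Areg window held 1 cyclic AMP response element, starting 61 bases before the start site, and 1 GC box starting 52 bases before it. Both strands were searched for these motifs, for the AP-1 site TGANTCA and for the ETS site CCGGAAGT, and the Areg matches do not overlap each other. Dusp6 and Spry2 held none of these letters in the window, which says nothing of the factors themselves. Of 32851 such windows over all genes, 1.55% held the cyclic AMP response element, 32.7% the GC box, 6.75% the AP-1 site and 2.88% the ETS site. A match is a description of the letters only. Windows are described for 5 of the 10 members. Besides those shown, Egfr held 1 GC box and Erbb2 held none of the 4 motifs. The windows of Erbb3, Ereg, Hbegf, Spry4 and Etv4 are not reported here, so nothing is said of their motifs.

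Total counts per library ranged from 13020492 to 15613216. Prdx6 was lower in KD than in parental cells by 1.81 ± 0.11 on the log2 scale in DMSO and by 1.75 ± 0.11 under largazole (SE). The libraries of 1 group differed in Rn45s, the ribosomal RNA precursor, most of all under largazole in KD cells, where replicate 1 held 23920 CPM (counts scaled to library size) against 742 CPM for replicate 2. The spread between replicates was also widest there, with an SD of the log2 difference of 0.359 against 0.194 to 0.218 in the other groups. Endothelial markers were scarce, with 4.42 to 7.9 CPM summed over 4 genes and Kdr at 0 in every library. The defining markers of stratified squamous epithelium were nearly absent: mean levels in parental DMSO cells were 0.0739 CPM for Krt5, 0.145 CPM for Krt14 and 0 CPM for Trp63. In bulk RNA, fewer cells of a type and less RNA per cell cannot be told apart. The labels do not state that replicates were grown separately, so p-values reflect variation among these libraries that may be technical only.

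**Figure D1:**
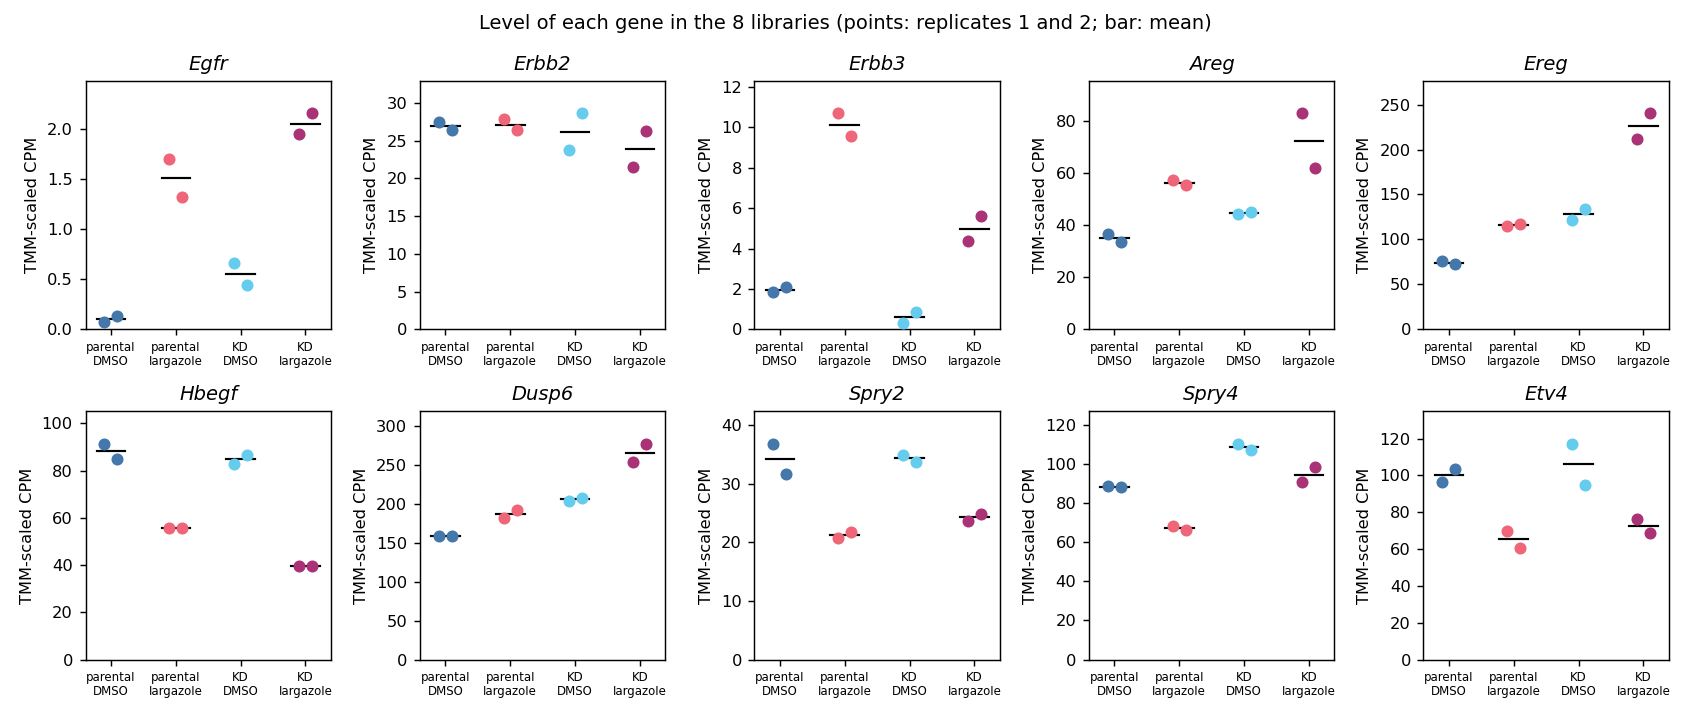
Level of each of the 10 genes (vertical axis, CPM scaled by the trimmed mean of M values, linear from 0) in the 8 libraries by group (horizontal axis); points are libraries and bars group means of 2. Areg, Ereg and Dusp6 were highest and Hbegf was lowest in KD cells under largazole, while Erbb2 stayed between 21.4 and 28.6 CPM in all libraries.

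With largazole the transcripts of the receptor Erbb3, of 2 ligands, Areg and Ereg, and of the ERK phosphatase gene Dusp6 rose in both genotypes. The ligand gene Hbegf, the feedback gene Spry2 and the transcription factor gene Etv4 fell in both. In parental cells 9 of the 10 members passed (5 rose and 4 fell), where 49.6% of all tested genes passed, 26.9% higher and 22.7% lower. In KD cells 8 passed (5 rose and 3 fell), where 48.2% of all genes passed, 25% higher and 23.2% lower. Egfr is among those that rose, but it entered the test only through the largazole libraries, where it was high, so that its own call is partly fixed by the filter and is not read as support. Without Egfr the counts were 8 of 9 (4 rose and 4 fell) and 7 of 9 (4 rose and 3 fell), and the medians of the 9 were 0.01 and -0.13. The median log2 fold change of the 10 members was 0.12 in each genotype, against 0.03 in parental and 0.01 in KD cells over all tested genes. Markers of other cell types moved in the same comparisons: the sum of 5 immune markers was 4.14 to 5.06 CPM in parental DMSO against 62.6 to 63.8 with largazole, and 4.48 to 4.71 in KD DMSO against 42.4 to 48.9 with largazole. Cd68, a lysosomal protein gene, made up most of it, while the T cell gene Cd3e was at 0 in every library. Ptprc was at 0 in every DMSO library and at means of 0.803 and 0.581 CPM with largazole in parental and KD cells. Csf1r did not pass in either genotype, and Itgam was not tested. Simple epithelial markers summed to 2003 to 2134 CPM in parental DMSO and 1164 to 1275 with largazole, and to 2297 to 2398 and 1321 to 1606 in KD cells. That fall is of Krt8 alone, since of the 3 tested markers of the list Krt8 fell and Krt18 rose in both genotypes. Epcam, the other tested marker, was at 0 in every DMSO library and above 0 in every largazole library. Epcam entered the test only through its largazole libraries, so no call is given for it. The 6 squamous markers summed to 390 to 395 CPM in parental DMSO and 273 to 297 with largazole. In KD cells they summed to 267 to 288 and 198 to 250. Nearly all of each sum, and its fall, was of the integrin gene Itga6. Krt14 went from a mean of 0.145 to 3.15 CPM with largazole in parental cells and from 0.0329 to 1.79 CPM in KD cells. Trp63 was at 0 in every DMSO library and at means of 0.572 and 0.670 CPM with largazole in parental and KD cells. Both entered the test only through largazole libraries, so no call is given for them. Sfn did not pass in either genotype. The part of all these markers in the members' changes was not tested.

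Egfr, the receptor of all 3 ligands (chromosome 11, 16752203 to 16918158, plus strand, GRCm38), was barely transcribed without the drug. Its counts were 1 and 2 for the parental DMSO libraries, 25 and 20 for parental cells with largazole, 10 and 6 for KD cells with DMSO, and 25 and 32 for KD cells with largazole. Both largazole groups lay above both DMSO groups, and KD DMSO lay above parental DMSO. Scaled to library size, parental largazole held 1.70 and 1.32 CPM and KD largazole 1.95 and 2.16 CPM, which did not overlap either. In parental cells the 45 largazole counts against 3 DMSO counts gave a ratio of 14.2 with a 95% interval of 4.57 to 71.6 (exact binomial, counting error only). In KD cells the level was 0.550 ± 0.153 CPM with DMSO and 2.05 ± 0.148 CPM with largazole (SD, n = 2 libraries). No p-value is given for these largazole differences, because the filter admitted Egfr through its largazole libraries alone. For the same reason the interval of the ratio is not read as support. Even at its highest Egfr stood at 2.16 CPM, so these differences are between low levels.

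Erbb3 encodes a receptor with little kinase activity of its own that signals in pairs with other family members (chromosome 10, 128567523 to 128589652, minus strand). Its level was 1.85 and 2.09 CPM for the parental DMSO libraries, 10.7 and 9.56 for parental cells with largazole, 0.329 and 0.884 for KD cells with DMSO, and 4.36 and 5.60 for KD cells with largazole. No groups overlapped, and the order from lowest to highest was KD DMSO, parental DMSO, KD largazole and parental largazole. Largazole raised Erbb3 by a log2 fold change of 2.35 ± 0.26 for parental cells (adjusted p = 5.89e-05 by edgeR's quasi-likelihood test, ± SE) and 3.06 ± 0.37 for KD cells (adjusted p = 0.000111). The KD DMSO value rests on 5 and 12 counts, and the KD response was 2.48 without KD DMSO replicate 1 and 3.89 without replicate 2.

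Erbb2, the receptor with no known ligand that is the usual partner of the others (chromosome 11, 98412470 to 98437716, plus strand), did not pass in any comparison. Its levels were 27.4 and 26.4 CPM for the parental DMSO libraries, 27.8 and 26.4 for parental cells with largazole, 23.7 and 28.6 for KD cells with DMSO, and 21.4 and 26.2 for KD cells with largazole. KD largazole lay just below both parental groups, and all other groups overlapped. The log2 fold change with largazole was 0.01 in parental cells, with a 95% interval of -0.29 to 0.31, and -0.13 in KD cells, with an interval of -0.44 to 0.18. Changes within these intervals remain possible, so a miss does not show that Erbb2 was unchanged. Expressed as CPM per kb of exon, Erbb2 was the highest of the 3 receptors in every library, with 94.4% and 93.4% of their summed level for the parental DMSO libraries, 73.5% and 74.8% for parental cells with largazole, 97.6% and 96.7% for KD cells with DMSO, and 82.1% and 81.8% for KD cells with largazole.

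The ligands split by direction. Areg encodes amphiregulin, a ligand of EGFR that keratinocytes use to stimulate themselves (chromosome 5, 91139599 to 91148432, plus strand). Its level was 36.5 and 33.5 CPM for the parental DMSO libraries, 57.1 and 55.2 for parental cells with largazole, 44.2 and 45.0 for KD cells with DMSO, and 82.9 and 62.0 for KD cells with largazole. No groups overlapped, largazole libraries lay above the DMSO libraries of either genotype, and the KD largazole replicates stood far apart. The rise with largazole was 0.68 ± 0.13 for parental cells (adjusted p = 0.00197) and 0.70 ± 0.13 for KD cells (adjusted p = 0.00163) on the log2 scale, or 1.61-fold and 1.62-fold. In KD cells it was 0.47 without KD largazole replicate 1 and stayed past the threshold without any 1 library (highest adjusted p = 0.0177).

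Ereg encodes epiregulin, which binds EGFR and ERBB4 (chromosome 5, 91074622 to 91093646, plus strand). It measured 75.5 and 72.5 CPM for the parental DMSO libraries, 115 and 117 for parental cells with largazole, 121 and 134 for KD cells with DMSO, and 211 and 240 for KD cells with largazole. The groups followed in that order with no overlap, although parental largazole and KD DMSO were close. Largazole raised Ereg by 0.65 ± 0.09 for parental cells (adjusted p = 0.000267) and 0.82 ± 0.09 for KD cells (adjusted p = 5.22e-05). Of its exons 141 bases overlap Gm19610 on the opposite strand, and the strand setting of the counting is not given in the sources used here.

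Hbegf encodes heparin-binding EGF-like growth factor, also a ligand of EGFR and ERBB4 (chromosome 18, 36504927 to 36515805, minus strand). Its level was 91.4 and 84.9 CPM for the parental DMSO libraries, 55.6 and 55.6 for parental cells with largazole, 82.8 and 86.8 for KD cells with DMSO, and 39.5 and 39.8 for KD cells with largazole. The DMSO groups overlapped, both largazole groups lay below them, and KD largazole was the lowest. Hbegf fell by 0.66 ± 0.08 for parental cells (adjusted p = 0.000141) and by 1.10 ± 0.09 for KD cells (adjusted p = 6.12e-06) on the log2 scale, which is 1.58-fold and 2.14-fold lower.

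**Figure D2:**
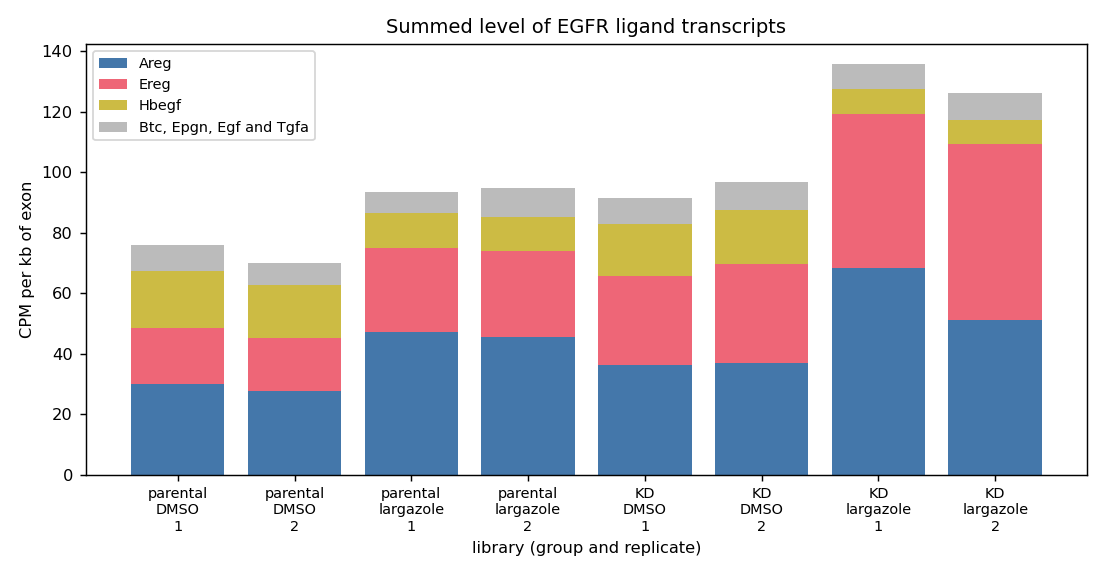
Level of EGFR ligand transcripts per kb of exon (vertical axis, stacked from 0) in each of the 8 libraries (horizontal axis, group and replicate). The Hbegf share falls from about 25.0% in parental DMSO to 6.03% and 6.52% in KD cells under largazole, while the Ereg share and the summed height are largest there.

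Per kb of exon the summed level of 7 EGFR ligand genes was 75.8 and 70.0 CPM for the parental DMSO libraries, 93.5 and 94.9 for parental cells with largazole, 91.3 and 96.7 for KD cells with DMSO, and 136 and 126 for KD cells with largazole. Areg, Ereg and Hbegf made up most of it, Btc being the next at 4.98 to 7.92 CPM per kb. The Hbegf share of this sum was 25.0% and 25.1% for the parental DMSO libraries, 12.3% and 12.1% for parental cells with largazole, 18.8% and 18.6% for KD cells with DMSO, and 6.03% and 6.52% for KD cells with largazole. The Ereg share was 24.1% and 25.1%, 29.7% and 29.9%, 32.2% and 33.6% and 37.7% and 46.1% in the same order. Hbegf and Ereg were thus at near equal levels in parental DMSO cells, with ratios of 1.03 and 1.00, and at 0.160 and 0.141 in KD cells under largazole. These sums and shares were not tested.

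Among the feedback genes Dusp6 rose with largazole while Spry2 fell. Dusp6, the cytoplasmic phosphatase of ERK (chromosome 10, 99263231 to 99267489, plus strand), measured 159 and 159 CPM for the parental DMSO libraries, 181 and 192 for parental cells with largazole, 203 and 208 for KD cells with DMSO, and 254 and 277 for KD cells with largazole. The groups followed in that order with no overlap. The rise with largazole was 0.23 ± 0.08 for parental cells (adjusted p = 0.0282) and 0.37 ± 0.08 for KD cells (adjusted p = 0.00286) on the log2 scale. The parental call was lost without parental DMSO replicate 1 (adjusted p = 0.172) or 2 (0.172), parental largazole replicate 1 (0.0655) or 2 (0.228), KD DMSO replicate 1 (0.055) or 2 (0.0711), with DESeq2 (0.0588) and with no filter (0.0683).

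Spry2 (chromosome 14, 105891947 to 105896819, minus strand) measured 36.8 and 31.6 CPM for the parental DMSO libraries, 20.7 and 21.8 for parental cells with largazole, 34.8 and 33.7 for KD cells with DMSO, and 23.7 and 24.8 for KD cells with largazole. The DMSO groups overlapped and lay above both largazole groups, of which the parental was the lower. Spry2 fell by 0.69 ± 0.12 for parental cells (adjusted p = 0.000818) and by 0.50 ± 0.11 for KD cells (adjusted p = 0.00514) on the log2 scale.

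Spry4 (chromosome 18, 38586247 to 38601415, minus strand) measured 88.7 and 88.0 CPM for the parental DMSO libraries, 68.4 and 66.2 for parental cells with largazole, 110 and 107 for KD cells with DMSO, and 90.5 and 98.2 for KD cells with largazole. No groups overlapped: within each genotype the largazole libraries lay below the DMSO libraries, and KD largazole lay just above parental DMSO. Spry4 fell by 0.39 ± 0.08 in parental cells (adjusted p = 0.00283). In KD cells its log2 fold change was -0.20 with a 95% interval of -0.38 to -0.02 (adjusted p = 0.0589), which passed without KD largazole replicate 2 (adjusted p = 0.0119).

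Etv4 (chromosome 11, 101769742 to 101785371, minus strand) measured 96.6 and 104 CPM for the parental DMSO libraries, 69.7 and 60.8 for parental cells with largazole, 117 and 94.7 for KD cells with DMSO, and 76.2 and 68.8 for KD cells with largazole. Largazole libraries lay below all DMSO libraries, and the genotypes overlapped within each treatment. Etv4 fell by 0.62 ± 0.12 for parental cells (adjusted p = 0.00188) and by 0.55 ± 0.12 for KD cells (adjusted p = 0.00372) on the log2 scale.

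**Figure D3:**
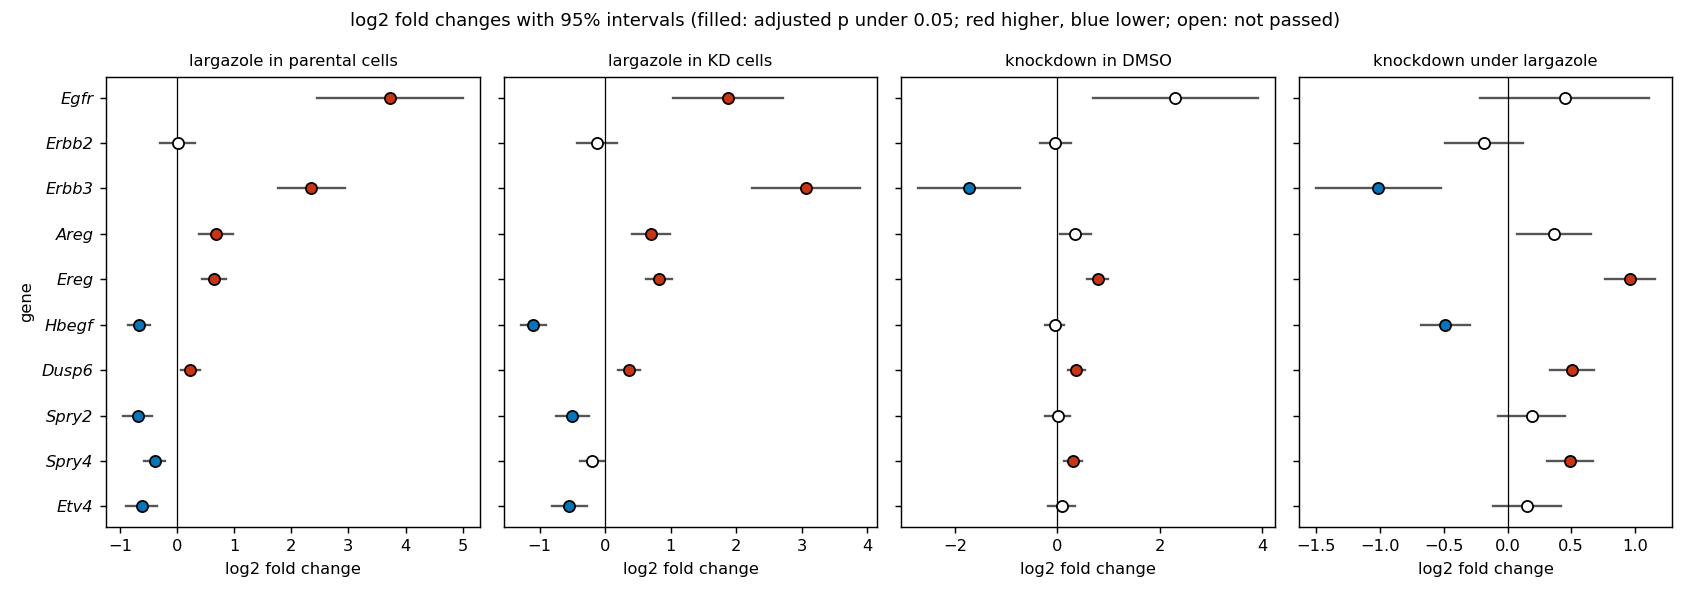
log2 fold change of each member (horizontal axis, own scale per panel) with its 95% interval in the 4 comparisons; filled points passed at an adjusted p under 0.05, red higher and blue lower. Ereg, Dusp6 and Spry4 lie above 0 and Erbb3 lies below 0 in both knockdown panels, and Erbb2 is open in all panels. Egfr is filled in the largazole panels, where it entered the test only through its largazole libraries.

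The knockdown was compared with parental cells within each condition. KD cells held more Ereg, Dusp6 and Spry4 and less Erbb3 than parental cells in both, and less Hbegf under largazole. In DMSO 4 of the 10 members passed (3 rose and 1 fell), where 11% of all tested genes passed, 7.01% higher and 4.02% lower. Under largazole 5 passed (3 rose and 2 fell), where 18.3% of all genes passed, 8.51% higher and 9.81% lower. The members' median log2 fold change was 0.19 in DMSO and 0.28 under largazole, against 0 and -0.0031 over all tested genes. Without Egfr, which entered the test only through its largazole libraries, the medians of the 9 were 0.08 and 0.19. Of these 9, 4 passed in DMSO and 5 under largazole. Fibroblast markers moved in the same direction as the members that rose. In KD cells all 5 passed as higher in DMSO and 3 of 5 did so under largazole, where the other 2 had positive changes that did not pass, with sums of 2885 to 2891 CPM in parental DMSO, 3926 to 4002 in KD DMSO, 3177 to 3239 in parental largazole and 3545 to 4059 in KD largazole. Their part in the members' differences was not tested.

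Ereg was higher in KD cells by 0.79 ± 0.09 in DMSO (adjusted p = 0.000459) and by 0.96 ± 0.09 under largazole (adjusted p = 0.000159) on the log2 scale, or 1.73-fold and 1.95-fold. It was the only member whose call in DMSO held without any 1 library (highest adjusted p = 0.0179). Dusp6 was higher by 0.37 ± 0.08 in DMSO (adjusted p = 0.013) and 0.51 ± 0.08 under largazole (adjusted p = 0.0018). Spry4 was higher by 0.30 ± 0.08 in DMSO (adjusted p = 0.0413) and 0.49 ± 0.08 under largazole (adjusted p = 0.00302). Erbb3 was lower in KD cells, with log2 fold changes of -1.72 ± 0.45 in DMSO (adjusted p = 0.0354) and -1.01 ± 0.22 under largazole (adjusted p = 0.0115). Hbegf had a log2 fold change of -0.06 in DMSO, with an interval of -0.24 to 0.13, and fell by 0.49 ± 0.09 under largazole (adjusted p = 0.00414).

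The DMSO calls of 3 of these genes depended on single libraries. Dusp6 lost its call without parental DMSO replicate 1 (adjusted p = 0.155) or 2 (0.156) or KD DMSO replicate 1 (0.0932) or 2 (0.111). Spry4 lost it without the same libraries (0.275, 0.296, 0.255 and 0.159) and without parental largazole replicate 1 (0.0829) or 2 (0.101). Erbb3 lost it without parental DMSO replicate 1 (0.129) or 2 (0.191), KD DMSO replicate 1 (0.266) or parental largazole replicate 1 (0.0633) or 2 (0.0617). Its log2 fold change in DMSO was -1.15 without KD DMSO replicate 1 and -2.56 without replicate 2. Under largazole only Erbb3 did so, without parental largazole replicate 1 (0.0902) or 2 (0.0563), while Hbegf missed with only the libraries compared (0.0529).

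Areg and Egfr had higher values in KD cells that did not pass. Areg had log2 fold changes of 0.35 in DMSO, with an interval of 0.05 to 0.65 (adjusted p = 0.134), and 0.36 under largazole, with an interval of 0.08 to 0.65 (adjusted p = 0.0781). Leaving out KD largazole replicate 1 (adjusted p = 0.00737) or 2 (0.00803) made it pass in DMSO, and leaving out replicate 2, the library with less Areg, made it pass under largazole (0.000347). With only the libraries compared it passed in DMSO (0.00644). For Egfr, 16 counts in KD DMSO stood against 3 in the parental libraries, a ratio of 5.26 with an exact binomial interval of 1.5 to 28.2 (adjusted p = 0.0719 by edgeR). Spry2 had changes of 0.00 and 0.19 and Etv4 of 0.08 and 0.15, with adjusted p from 0.302 to 1.

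Whether largazole acted differently in KD and parental cells was tested as the difference between the responses. None of the 10 members passed, where 0.208% of all tested genes did, 0.032% higher and 0.176% lower. edgeR gave 2 members at an unadjusted p under 0.05, where 8.68% of all tested genes were, and DESeq2 and limma-voom also called 0. The 2 were Egfr and Hbegf. For Egfr the difference was -1.85, resting on 3 counts in parental DMSO. Egfr entered the test only through its largazole libraries, so its difference is not read as support. For Hbegf the difference was -0.43, with a 95% interval of -0.70 to -0.17 (adjusted p = 0.257). For Areg the difference was 0.01, with an interval of -0.40 to 0.43, and for Ereg 0.17, with an interval of -0.11 to 0.46. A miss at this threshold does not show equal responses.

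The companion genes of the pathway were taken from lists of pathway genes grouped by function, chosen with earlier results of these data known. Of 9 other genes of the EGF family, 6 were tested, and Erbb4, Nrg3 and Nrg4 were at 0 counts in all libraries. Tgfa and Egf, with few counts in DMSO, entered the test only through largazole libraries. Of the other 4, with largazole 1 rose and none fell in parental cells, and 2 rose and none fell in KD cells. Of all tested genes 49.6% passed in parental cells, 26.9% higher, and 48.2% in KD cells, 25% higher. The medians of the 4 were -0.11 and 0.43 against 0.03 and 0.01 over all tested genes. Tgfa, the ligand transforming growth factor alpha, had 50 counts in parental largazole against 1 in DMSO, a ratio of 47.5 (interval 8.14 to 1910). In KD cells it had 22 against 1, a ratio of 22.9 (3.7 to 944). Both intervals cover counting error only. They are not read as support, because the filter admitted Tgfa through largazole libraries. Epgn, the ligand epigen, rose by 1.60 ± 0.32 in parental cells, where its level went from 1.04 and 1.21 to 3.06 and 3.82 CPM. Its smaller rise of 0.69 in KD cells was lost without any of 7 libraries (adjusted p up to 0.229). Nrg1, a ligand of ERBB3 and ERBB4, rose in KD cells by 0.76 ± 0.22 (adjusted p = 0.0181), a call lost without any of 3 libraries or with only the libraries compared (adjusted p up to 0.101), while the 95% interval of its change in parental cells was -0.45 to 0.45. Btc, betacellulin, the most abundant of these per kb, had changes of -0.24 and -0.36 (adjusted p = 0.278 and 0.124).

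**Figure D4:**
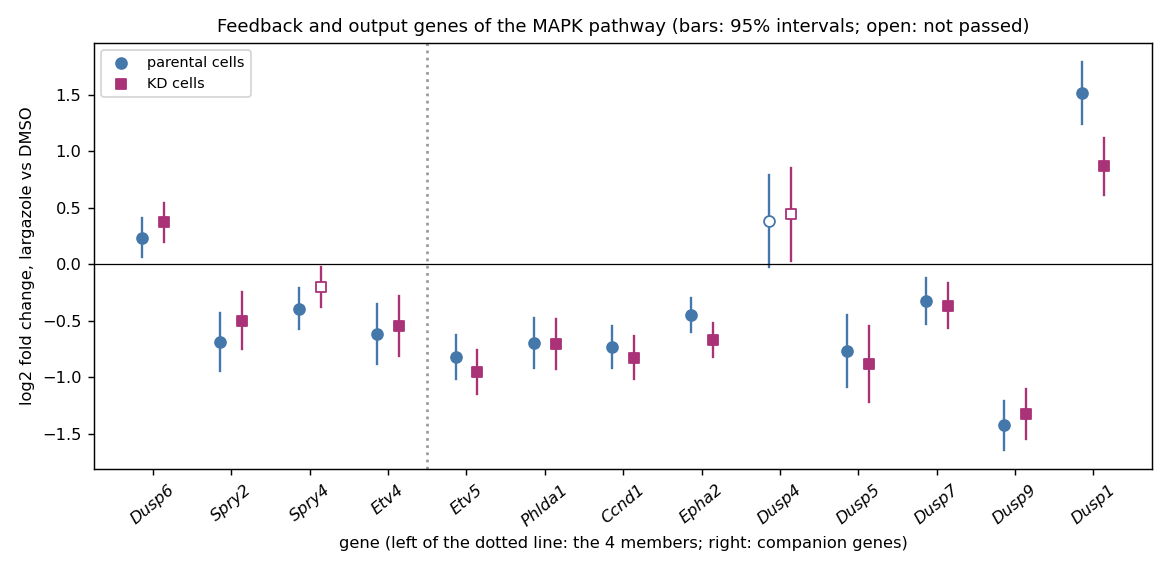
log2 fold change with largazole (vertical axis) with 95% intervals for the 4 feedback and target members (left of the dotted line), the 5 tested companion genes of the MAPK activity list and other DUSP genes that passed in parental cells (right), in parental (circles) and KD cells (squares); open symbols did not pass. Etv5, Phlda1, Ccnd1 and Epha2 lie below 0 and Dusp1 lies above 0 in both genotypes.

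Genes often used as readouts of ERK output moved mostly down with largazole. Of 6 such genes that are not members, 5 were tested and 4 fell in each genotype. Of all tested genes 22.7% fell in parental and 23.2% in KD cells. The medians of the 5 were -0.70 in both genotypes, against 0.03 and 0.01 over all tested genes. Among these 5 genes Dusp4 and Etv5 also belong to the DUSP and ETS lists. Etv5, the close relative of Etv4, fell from 177 and 182 to 102 and 102 CPM in parental cells (log2 fold change -0.82 ± 0.09) and from 171 and 178 to 83.2 and 97.1 CPM in KD cells (-0.95 ± 0.09). The cyclin D1 gene Ccnd1 fell by 0.73 ± 0.08 and 0.83 ± 0.08, the receptor kinase gene Epha2 by 0.45 ± 0.07 and 0.67 ± 0.07 and Phlda1 by 0.70 ± 0.10 in each. Dusp4, a nuclear MAPK phosphatase, had changes of 0.38 and 0.44 that did not pass (adjusted p = 0.109 and 0.0736). The 4 calls held in each genotype without any 1 library. Exons of Ccnd1 (1100 bases), Phlda1 (727) and, below, Dusp5 (547) overlap genes on the opposite strand.

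The other DUSP phosphatases did not move as 1 group. Of 10 tested, 1 rose and 3 fell in parental cells and 1 rose and 4 fell in KD cells with largazole. Of all tested genes 49.6% and 48.2% passed in these comparisons. The medians of the 10 were -0.02 and 0.00. Dusp1, an early-response nuclear phosphatase, rose from 12.9 and 11.6 to 37.3 and 32.7 CPM in parental cells (1.51 ± 0.12) and from 27.2 and 25.0 to 48.6 and 46.5 CPM in KD cells (0.86 ± 0.11). Dusp9 fell by 1.43 ± 0.10 and 1.33 ± 0.10, and Dusp5, a nuclear phosphatase of ERK, by 0.77 ± 0.14 and 0.88 ± 0.15. With the knockdown 2 of 10 rose and 1 fell in DMSO, and 2 rose and 2 fell under largazole. The shares of all tested genes that passed there were 11% and 18.3%. Dusp1 was higher in KD cells by 1.09 ± 0.13 in DMSO, a call that held without any 1 library.

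Of the 6 tested relatives among Sprouty, SPRED and RAS GTPase-activating genes, 1 fell in parental and none passed in KD cells with largazole. Of all tested genes 49.6% and 48.2% passed there. With the knockdown 1 of the 6 rose in DMSO and 3 rose under largazole (Spred1, Rasa1 and Nf1), none falling in either. Of all tested genes 11% passed in DMSO, 7.01% higher, and 18.3% under largazole, 8.51% higher. The medians of the 6 were 0.12 and 0.35 against 0 and -0.0031 over all tested genes. Spred1, an inhibitor of RAS activation, was higher in KD cells by 0.35 ± 0.09 in DMSO (adjusted p = 0.037) and by 0.49 ± 0.09 under largazole (adjusted p = 0.00544). Its DMSO call was lost without any 1 of the DMSO or parental largazole libraries (adjusted p up to 0.276), and its largazole call without parental largazole replicate 1 (adjusted p = 0.0736). Under largazole Nf1 lost its call without any of 7 libraries and in 5 other settings (adjusted p up to 0.293), and Rasa1 without either parental largazole library and in 1 other setting (adjusted p up to 0.145). Of 8 tested ETS genes beside Etv4, only Etv5 passed with largazole, where 49.6% and 48.2% of all tested genes passed. Etv1, a PEA3 relative, was higher in KD cells by 0.85 ± 0.14 under largazole.

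Compared per kb of exon in parental DMSO cells, Dusp6 was the highest member with 50.8 CPM per kb. Etv4 followed with 32.3 and Areg with 28.8, then Spry4 with 18.6, Hbegf with 18.2, Ereg with 17.9 and Spry2 with 16.4 CPM per kb. Erbb2 stood at 5.16, Erbb3 at 0.327 and Egfr at 0.00922 CPM per kb. The level of Egfr per kb is lowered by its long exon union of 11.3 kb, which joins exons of all its annotated transcripts.

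The genes with the most similar profile to each member were found by the root mean square difference of log2 CPM over the 8 libraries, each gene centred on its own mean, among 10183 genes of at least 5 CPM. Hbegf was nearest to Kpna2, with a difference of 0.034 where its own SD over the libraries was 0.47, and next to Gle1 (0.076). Areg was nearest to Hrsp12 (0.049) and Tmem50a (0.052), and Ereg to Col6a1 (0.097) and Angpt1 (0.099). Dusp6 was nearest to Ube2h (0.059) and Tead3 (0.061), Spry2 to Smg6 (0.049) and Pcdhga11 (0.058), Spry4 to Uaca (0.050) and Slc2a1 (0.051) and Etv4 to Sbds (0.053) and Trip10 (0.060). Egfr was nearest to Sphk1 (0.14) and Clip3 (0.16), where its own SD was 1.25, and Erbb3 to Cdk18 (0.40) and Adgrl1 (0.41), where its own SD was 1.48.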

How the data were processed

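Polyadenylated RNA of 8 libraries was sequenced from directional libraries, per the labels' protocols. The build was mm10, per the submitters' processing notes; for the aligner, counting tool, strand setting and annotation, the entry is: not given in the sources used here. Expected counts per gene symbol, without normalization, are what the authors deposited; each was rounded before testing. Tests were two-sided and came from the quasi-likelihood method of edgeR 4.0.16 (legacy option off) after TMM scaling, in 1 model of all 8 libraries with a mean for each group. Genes were kept by filterByExpr with a minimum count of 10 and total of 15, which here means at least 0.697 CPM in 2 libraries. Adjusted p is by Benjamini-Hochberg over 12517 genes, with a threshold of 0.05. Each SE was derived from the F statistic, and intervals are 95%. Exact binomial intervals cover counting error only; at 13020492 or more counts per library, counting error matters for Egfr, Erbb3 and Tgfa. Exon lengths, overlaps and gene coordinates are from GENCODE release M21 on GRCm38, the assembly of mm10. Promoter windows are RefSeq's on GRCm38.p6.

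Named genes are the 10 members, Prdx6, marker genes, up to 4 passing genes with the largest changes per companion list, and the 2 nearest profiles of each passing member; not all that the rule names are described. Btc, Dusp4, Spred1 and genes listed at 0 were added for completeness after their values were seen. The members, motifs and the 8 companion lists were chosen with earlier results of these data known. The fit was tested on simulated counts with known changes. Alternatives were RLE, upper-quartile and total-count scaling, other filters, DESeq2 1.42.0, limma-voom (limma 3.58.1), the older quasi-likelihood method, only the libraries compared, a replicate block and leaving out each library; removal of Rn45s was chosen after seeing the data. Software was R 4.3.3, with Python 3.11.15 and matplotlib 3.10.9 for figures.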

Additional observations from a re-analysis of the deposited data

How the results depend on the processing

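The log2 fold changes of the members kept direction and side of the threshold in 871 of 933 recomputed values. They lost a call in 30, gained one in 7 and changed sign in 25, and each sign change was of a value that had not passed. Leaving out 1 library moved the number of members called between 8 and 9 for largazole in each genotype, between 1 and 5 for the knockdown in DMSO, between 4 and 6 for the knockdown under largazole, and left it at 0 for the difference between responses. The cause was not tested. Over all genes the knockdown in DMSO gave 1380 calls, and 3266 with only the libraries compared, while under largazole it gave 2293 and 965; the difference between responses gave 26, 83 with DESeq2 and 104 with a replicate block. Without single libraries these counts ranged from 398 (parental DMSO replicate 2) to 2969 (KD largazole replicate 2), from 837 (parental largazole replicate 2) to 4175 (KD largazole replicate 2), and from 2 to 457 (KD largazole replicate 2). Under the other settings Spry4 lost its call in DMSO with RLE scaling (adjusted p = 0.0506), library totals (0.0727), no filter (0.0779) and DESeq2 (0.0896). Under the stricter filter 9 members were tested, Egfr being left out.

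Among log2 fold changes near 0, that of Spry2 with the knockdown in DMSO changed sign with RLE scaling (-0.0096), library totals (-0.007), no filter (-0.0077) and DESeq2 (-0.0099), and ranged from -0.1115 to 0.1054 without single libraries. Erbb2 with largazole in parental cells was -0.0151 with no filter and ranged from -0.0318 to 0.0285 without single libraries. It ranged from -0.2858 to 0.0111 with largazole in KD cells, from -0.1869 to 0.0873 with the knockdown in DMSO and from -0.2815 to 0.0164 for the difference between responses. For that difference Areg was -0.0039 with library totals and -0.0072 with limma-voom, and ranged from -0.2093 to 0.2218, and Etv4 ranged from -0.0597 to 0.2317. Etv4 with the knockdown in DMSO ranged from -0.0803 to 0.2233.

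The replicate numbers do not pair the libraries by the labels. The correlation of replicate differences between groups was over 0.1 in 4 of 6 pairs of groups and ranged from -0.008 to 0.364, so fewer than all pairs passed and the libraries were not treated as paired. The correlations among parental largazole, KD DMSO and KD largazole were 0.273, 0.364 and 0.343, and replicate 1 held more Rn45s than replicate 2 in every group, a hint from the data that replicates of 1 number share something. With a replicate block the members called were 9, 9, 4, 6 and 0, where 55.7%, 54%, 16.2%, 24.8% and 0.831% of all genes were, for largazole in parental and KD cells, the knockdown in DMSO and under largazole and the difference between responses, Spry4 with largazole in KD cells (adjusted p = 0.0448) and Areg with the knockdown under largazole (adjusted p = 0.0288) being added. Depth limits Egfr, with 3 counts in parental DMSO, and Erbb3, with 17 counts in KD DMSO.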

Other observations

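Of 9 tested genes of ligand shedding, 2 rose and 3 fell with largazole in parental cells, and 2 rose and 1 fell in KD cells, where 49.6% and 48.2% of all tested genes passed. The metalloprotease genes Adam8 and Adam15 rose in both genotypes. Adam8 went from 35.2 and 34.1 to 97.3 and 92.0 CPM in parental cells and from 16.5 and 16.4 to 65.5 and 59.9 CPM in KD cells, so that the KD libraries were lower within each condition. Rhbdf2, which encodes a partner of the sheddase ADAM17, was higher in KD cells by 0.58 ± 0.08 in DMSO (adjusted p = 0.00122) and by 0.47 ± 0.08 under largazole (adjusted p = 0.00337, edgeR). These calls held without any 1 library.

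Among 13 tested genes of receptor feedback and endocytosis, 3 rose and 1 fell with the knockdown in DMSO, and 3 rose and 1 fell under largazole, where 11% and 18.3% of all tested genes passed. Errfi1, which encodes an inhibitor of the EGFR kinase, measured 442 and 433 CPM without and 484 and 496 CPM with largazole in parental cells, and 624 and 662 CPM without and 692 and 757 CPM with largazole in KD cells. Its KD libraries were all above the parental ones, by 0.56 ± 0.07 on the log2 scale in each condition. Socs3, a suppressor of cytokine signalling, was higher in KD cells by 0.66 ± 0.09 and 0.65 ± 0.09. Of 19 genes of the core cascade from adaptors to ERK kinases, 2 rose and 1 fell with largazole in parental cells and 2 rose and 2 fell in KD cells, which is 3 and 4 of 19 where 49.6% and 48.2% of all tested genes passed. Araf, which encodes a kinase of the cascade, rose by 0.47 ± 0.09 and 0.44 ± 0.09. Of the exons of Adam15 1263 bases overlap a gene on the opposite strand.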
